A study of Macaca mulatta with 24 samples.

Results

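DIAPH3, a formin gene, was described across 4 frontal areas of the rhesus monkey (Macaca mulatta) neocortex because earlier results of these same arrays had placed it highest in dorsal premotor cortex (PMd). All probe sets annotated to DIAPH3 alone (Entrez Gene 695990) were taken, 3 of 52766 probe sets that are not controls. They are MmugDNA.22775.1.S1_at, MmugDNA.22624.1.S1_at and MmugDNA.42203.1.S1_at. Of these 3 only MmugDNA.22775.1.S1_at had a mean log2 intensity above the median of all probe sets, 5.62 (intensity 49.3), which was the minimum for the tests used here. The gene was chosen by these log2 levels, for the size and regularity of its PMd excess, so its area levels are a description with no test.

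The groups were PMd, the forelimb part of primary motor cortex (M1), ventral premotor cortex (PMv) and prefrontal area 46 (A46). Each was dissected by sulcal landmarks from the left and right hemispheres of 3 untreated, group-caged adolescents, which were animals 1 and 2 (males of 2.7 and 2.6 years) and animal 3 (a female of 2.7 years). The 24 pieces went onto 24 one-colour Affymetrix Rhesus arrays, 6 per area, and n below is the number of animals, 3, with both hemispheres averaged. PMd and PMv came from the upper and lower limb of the arcuate sulcus with the adjoining convexity, A46 from the banks of the principal sulcus. Each piece is bulk tissue of mixed cell types, in which fewer cells of a type and less RNA per cell cannot be told apart.

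DIAPH3, also called mDia2, is a diaphanous-related formin. Such formins nucleate and lengthen unbranched actin filaments, taking up actin bound to profilin, and are held shut by an internal contact until they are activated. DIAPH3 is known for its part in filopodia and in cytokinesis, for stabilising microtubules, and, in mouse cortical progenitors, for faithful cell division, while a human mutation that raises its expression causes a form of deafness called auditory neuropathy.

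In PMd, MmugDNA.22775.1.S1_at had an intensity of 146.3 in the left and 192.8 in the right hemisphere of animal 1, 106.8 and 116.3 in animal 2, and 194.6 and 202.1 in animal 3. In M1 the left and right values were 95.48 and 87.82 in animal 1, 75.97 and 45.46 in animal 2, and 98.08 and 94.75 in animal 3. PMd was the highest of the 4 areas in all 6 combinations of animal and hemisphere, by 1.38-fold to 2.12-fold over the next area. In PMv the left and right values were 106.00 and 90.76 in animal 1, 55.45 and 66.44 in animal 2, and 86.70 and 112.30 in animal 3. In A46 they were 58.39 and 66.56 in animal 1, 52.63 and 59.76 in animal 2, and 77.57 and 80.89 in animal 3. A46 was the lowest area in 5 of the 6 combinations, the exception being the right hemisphere of animal 2, where M1 was lowest. Across animals the ranges touched, since the lowest PMd value, 106.8 in animal 2, lay below the highest value of PMv, 112.30 in animal 3. Within each animal they did not, and both PMd arrays stood above all 6 arrays of the other areas.

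**Figure D1:**
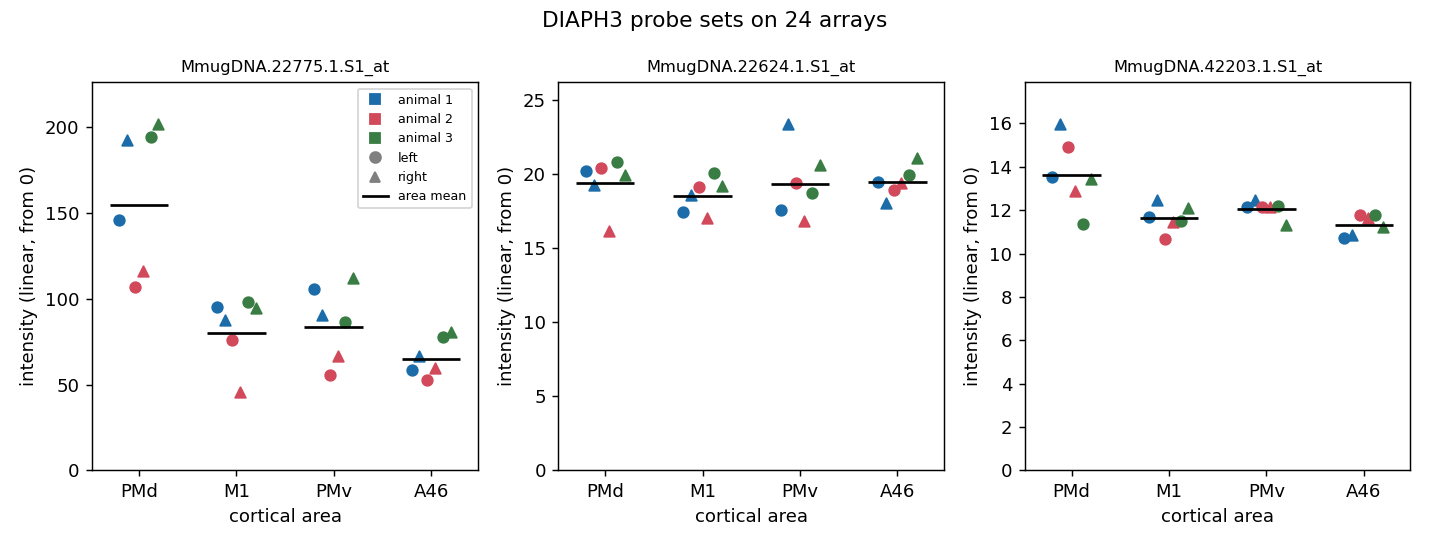
Intensity (linear, from 0) of the 3 DIAPH3 probe sets by area on 24 arrays, with animals in colour, left hemispheres as circles, right hemispheres as triangles and area means of log2 values as black lines. In the left panel PMd lies between 106.8 and 202.1 and the other areas between 45.46 and 112.30, and the middle panel shows no such step.

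As area means the probe set stood at a log2 intensity of 7.27 ± 0.43 in PMd, 6.39 ± 0.40 in PMv, 6.33 ± 0.39 in M1 and 6.03 ± 0.26 in A46 (n = 3 animals, SD). PMd exceeded PMv by 0.89 ± 0.12, a 1.85-fold difference that was 0.78, 0.88 and 1.01 in animals 1, 2 and 3. It exceeded M1 by 0.95 ± 0.09, or 1.93-fold, with 0.88, 0.92 and 1.04 in the 3 animals. It exceeded A46 by 1.25 ± 0.23, or 2.38-fold, with 1.43, 0.99 and 1.32. These paired differences varied less between animals than the levels did. The other areas lay closer together. M1 differed from PMv by -0.06 ± 0.03 on the log2 scale, with the same sign in 3 of 3 animals. In 2 of 6 combinations of animal and hemisphere M1 was nevertheless above PMv. M1 exceeded A46 by 0.30 ± 0.24, ranging between 0.07 in animal 2 and 0.55 in animal 1. PMv exceeded A46 by 0.36 ± 0.27, ranging between 0.11 in animal 2 and 0.65 in animal 1. The neurofilament gene NEFH, a marker of large projection neurons named after its values were seen, had another order. It was higher in PMd than in A46 (1.42, SE 0.08, limma adjusted p = 3.77e-06) but lower in PMd than in M1 (-0.82, SE 0.08, adjusted p = 0.0019). The 6 tested layer 5 markers, NEFH among them, were mixed. Against A46 3 were higher and 1 lower in PMd (1.81% and 0.697% of all genes). Against M1 1 was higher and 2 lower (0.229% and 0.209%).

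The remaining probe sets gave less of this pattern. MmugDNA.42203.1.S1_at, read at 10.65 to 15.98 where the lowest value of any probe set was 6.88, was also highest in PMd. Its PMd intensities were 13.52 and 15.98 in animal 1 (left and right), 14.90 and 12.89 in animal 2, and 11.38 and 13.46 in animal 3, against a range of 10.65 to 12.48 over the 18 arrays of the other areas. PMd was highest in 5 of 6 combinations, all but the left hemisphere of animal 3, where PMd was the lowest area. The PMd difference of MmugDNA.42203.1.S1_at was 0.23 ± 0.14 from M1, 0.17 ± 0.09 from PMv and 0.27 ± 0.17 from A46, positive in 3 of 3 animals each time. MmugDNA.22624.1.S1_at, at 16.12 to 23.36, had PMd highest in 3 of 6 combinations. Its PMd difference was 0.07 ± 0.06 from M1, 0.01 ± 0.05 from PMv and -0.003 ± 0.07 from A46, of which only the first exceeded its SD, and slightly. Over the 24 arrays, which share 3 animals, log2 values of MmugDNA.22775.1.S1_at correlated with those of MmugDNA.42203.1.S1_at at 0.57 and with those of MmugDNA.22624.1.S1_at at 0.27. Which exons or transcripts each probe set reads was not analysed here. The results below concern MmugDNA.22775.1.S1_at unless another is named.

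Animals differed in the level of DIAPH3 but kept the order of areas when hemispheres were averaged, though not in every hemisphere. The mean over the 4 areas was an intensity of 98.5 in animal 1, 68.7 in animal 2 and 111 in animal 3. PMd and the mean of the other areas were 168 and 82.4 in animal 1, 111 and 58.5 in animal 2, and 198 and 91.0 in animal 3. When the variance over the 12 log2 means was split, area held 69.7%, animal 27.5% and the remainder 2.79%. For MmugDNA.42203.1.S1_at area held 71.1%, animal 4.86% and the remainder 24.1%, whereas for MmugDNA.22624.1.S1_at area held 16.2% and animal 55.6%.

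Few other genes peaked in PMd. Taking for each gene the probe set of the highest mean past the minimum, 10 of 10043 genes (0.0996%) had their PMd array the highest of its animal and hemisphere in 6 of 6, DIAPH3 included, which the choice of the gene fixed. The corresponding counts were 283 genes for M1 (2.82%), 3 for PMv (0.0299%) and 184 for A46 (1.83%). Among the 10, DIAPH3 stood 0.89 above its next highest area on the log2 scale, and the other 9 genes stood 0.09 to 0.17 above theirs. These were led by PCDHA11, a clustered protocadherin of neuronal cell surfaces (0.17 above M1), IL17RB, an interleukin receptor (0.16 above M1), and ECM1, an extracellular matrix protein (0.13 above M1). C15H9orf50 (0.13 above M1), FAAP100, a member of the Fanconi anaemia DNA repair complex (0.12 above A46), and LOC698738 (0.11 above PMv) followed.

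**Figure D2:**
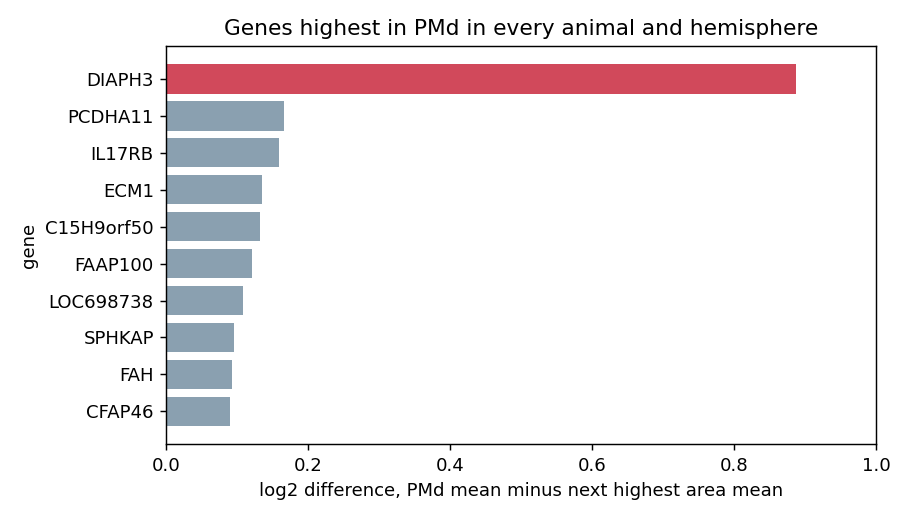
Log2 difference between the PMd mean and the next highest area mean (bars, from 0) for the 10 genes whose PMd array was the highest of its animal and hemisphere in 6 of 6. The DIAPH3 bar reaches 0.89 and the others 0.09 to 0.17.

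The gene was not chosen for a left-right difference, so hemisphere was tested. The regularity it was chosen for covered arrays of both hemispheres, so the hemisphere tests below are not fully independent of that choice. DIAPH3 averaged an intensity of 89.5 on the left and 92.1 on the right over 12 pairs of pieces, and was higher on the left in 4 of the 12. The log2 difference left minus right was -0.04 (SE 0.07, 95% confidence interval -0.20 to 0.11, limma adjusted p = 0.931), a ratio of 0.971 with an interval of 0.872 to 1.08. Across the array limma called 0 of 26383 probe sets (0%) for left minus right, while 2022 (7.66%) had an unadjusted p under 0.05, and a fit on means per animal called 38. Without the intensity minimum MmugDNA.42203.1.S1_at gave -0.03 (SE 0.04, adjusted p = 0.928) and MmugDNA.22624.1.S1_at 0.02 (SE 0.05, adjusted p = 0.972).

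By area, the left side was lower in PMd in 3 of 3 animals, at means of 145 on the left and 165 on the right (log2 difference -0.19 ± 0.18, SD), and lower in A46 in 3 of 3, at 62.0 and 68.5 (-0.14 ± 0.07). In M1 it was higher in 3 of 3, at 89.3 and 72.3 (0.30 ± 0.38), with differences of 0.12, 0.74 and 0.05 in animals 1, 2 and 3. In PMv it was higher in 1 of 3, at 79.9 and 87.8 (-0.14 ± 0.32). An F test of whether left minus right depended on the area gave F = 3.39 and an unadjusted p of 0.0413, which did not pass adjustment over 26383 probe sets (limma adjusted p = 0.999, 0 called or 0%, 1113 or 4.22% at an unadjusted p under 0.05). Without animal 2, whose right M1 piece read 45.46, F was 0.91 (unadjusted p = 0.462). It was 4.75 without animal 1 (0.0189), 4.30 without animal 3 (0.0194) and 5.29 without the PMv pair of animal 1 (0.0091), and no adjusted p passed in these fits.

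**Figure D3:**
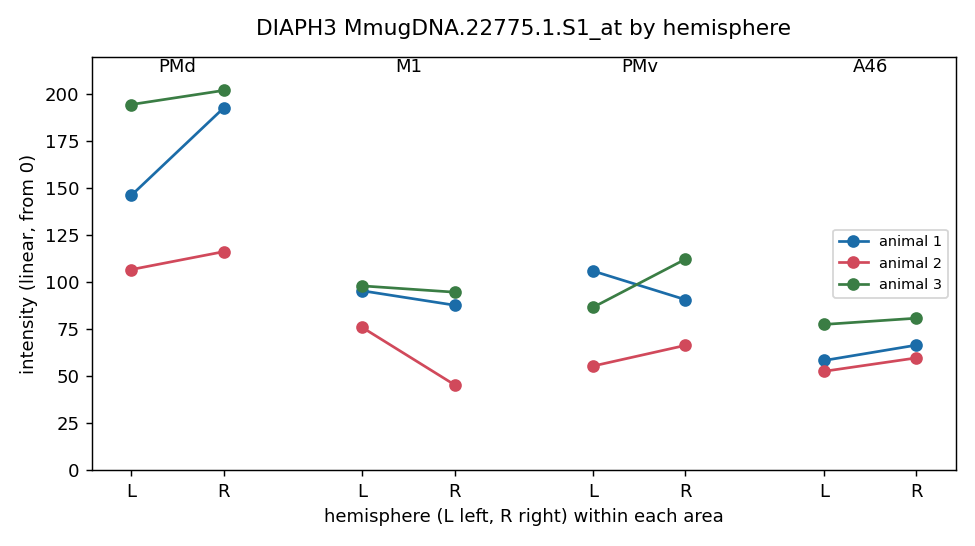
Intensity of MmugDNA.22775.1.S1_at (linear, from 0) in left (L) and right (R) pieces of each area, with a line for each animal. Lines rise to the right in PMd and A46, fall in M1, where animal 2 reads 75.97 on the left and 45.46 on the right, and cross in PMv.

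No other formin was called. Of 13 other formin genes listed, 10 were named on the array and passed the intensity minimum, and limma called 0 of them in PMd minus M1, PMd minus PMv or PMd minus A46, where 0.438%, 0.0199% and 2.51% of 10043 genes were called. Their differences spanned -0.26 to 0.32 from M1, -0.13 to 0.18 from PMv and -0.11 to 0.25 from A46, with medians of -0.01, 0.06 and 0.05, where the medians of all genes were 0.01, 0.04 and 0.01. At an unadjusted p under 0.05 there were 5, 2 and 2 of the 10 formins, where 9.07%, 5.95% and 16.5% of all genes were. DIAPH2, a diaphanous-related formin linked in humans to ovarian failure, had 95.3 to 107.7 in PMd (median 105.0) against 63.6 to 91.8 in M1 (median 85.2). These ranges did not overlap, a separation of PMd and M1 arrays that 1.44% of genes had in either direction, and PMd exceeded M1 by 0.32 (SE 0.07, limma adjusted p = 0.0711). That difference passed with arrays centred on their medians (adjusted p = 0.0449) and without the left PMv array of animal 1 (0.0497). It also passed on right hemisphere arrays alone (0.40, adjusted p = 0.048), and under no other alternative run. In those settings the calls over all genes rose from 44 to 108, 108 and 101. In PMv and A46 DIAPH2 had medians of 114.8 and 111.8, above that of PMd.

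DIAPH1, a diaphanous-related formin of stress fibres, had a median of 482 in PMd, 555 in M1, 479 in PMv and 514 in A46, and its PMd minus M1 difference was -0.22 (SE 0.08, adjusted p = 0.392). DAAM2, a formin of Wnt signalling, differed by -0.26 from M1 (SE 0.09, adjusted p = 0.307) and by 0.23 from A46 (SE 0.09, adjusted p = 0.206). INF2, a formin that also severs filaments, differed by 0.25 from A46 (SE 0.07, adjusted p = 0.0987), although its other probe set had the opposite sign. FHOD1, a formin of stress fibres, had its highest mean in PMd in 3 of 3 animals, by 0.19 over M1 (SE 0.07, adjusted p = 0.492), 0.18 over PMv (adjusted p = 0.854) and 0.10 over A46 (adjusted p = 0.585). DAAM1, a Wnt pathway formin (0.09 from M1, 0.18 from PMv and -0.04 from A46), FMNL1, a formin of leukocytes (0.14, 0.13 and 0.05), and FMN2, a formin of oocytes and neurons (-0.02, 0.10 and 0.13), did not pass. Nor did FHOD3, a formin of heart sarcomeres (-0.01, 0.03 and -0.08), and GRID2IP, known as delphilin, which binds the glutamate receptor delta-2 of Purkinje cells (-0.04, 0.01 and 0.05). DAAM1, FMN2 and FMNL1 each had further probe sets past the minimum, of which none passed. That of FMNL1 had the opposite sign in all 3 comparisons, and that of DAAM1 had it against M1 and PMv. Those of FMN2 were of mixed sign only against M1. Without animal 3, DAAM1 passed against PMv (0.31, limma adjusted p = 0.0275), where 549 of all genes did. In that setting DAAM2 (0.32, adjusted p = 0.0233) and INF2 (0.31, adjusted p = 0.022) passed against A46, where 1187 of all genes did.

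**Figure D4:**
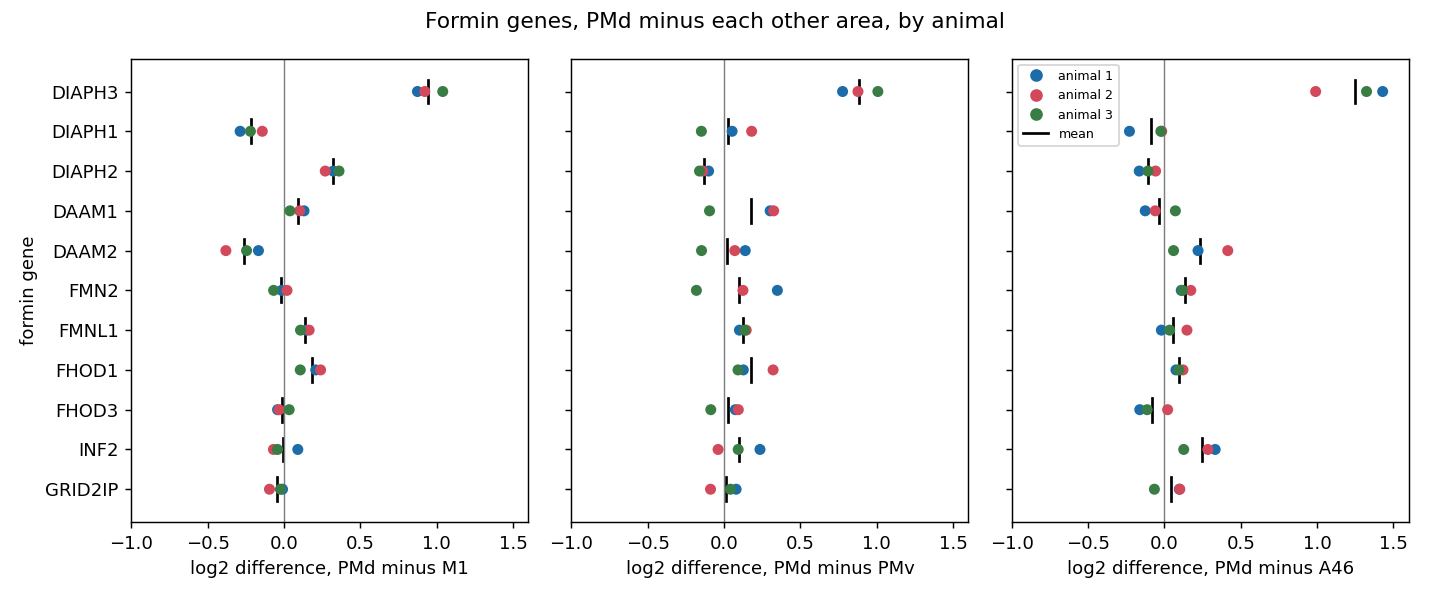
Log2 difference PMd minus M1, PMd minus PMv and PMd minus A46 for DIAPH3 and 10 other formin genes, with a point per animal and a black line at the mean. DIAPH3 means are 0.95, 0.89 and 1.25, and those of the others lie between -0.26 and 0.32.

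Genes that act with formins were also examined, by lists chosen with earlier results of these arrays known. Of 22 genes of actin filament assembly limma called 0 in PMd minus M1, 0 in PMd minus PMv and 1 in PMd minus A46, beside backgrounds of 0.438%, 0.0199% and 2.51%, and at an unadjusted p under 0.05 there were 3, 2 and 4, where 9.07%, 5.95% and 16.5% of all genes were. TMOD1, which caps the slow-growing filament end, was lower in PMd than in A46 (-0.54, SE 0.08, adjusted p = 0.0062), as 0.697% of genes were, with its other probe set also passing. That other probe set was also higher in PMd than in M1 (0.39, SE 0.07, adjusted p = 0.0406), where the probe set that stood for the gene gave 0.29 (SE 0.08, adjusted p = 0.157). Against A46, PFN1, the profilin that feeds actin to formins (0.23, adjusted p = 0.262), the filament-severing GSN (0.25, adjusted p = 0.249), VASP (0.07, adjusted p = 0.865) and ARPC2 (0.12, adjusted p = 0.232) did not pass. Their differences from M1 were -0.13 for PFN1, -0.38 for GSN (limma adjusted p = 0.136), -0.37 for VASP (0.373) and 0.004 for ARPC2, and none passed.

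Cell division genes were mostly read at low intensity. Of 19 named on the array 8 passed the minimum, and MKI67 and TOP2A, markers of dividing cells, were among those below it, with mean log2 intensities of 4.80 and 4.87. ANLN, an actin-binding protein of the cleavage furrow that is also made by myelinating cells, was higher in PMd than in A46 (1.11, SE 0.17, adjusted p = 0.0067), as 1.81% of genes were, and was the only call among the 8 in the 3 comparisons. It differed by -0.84 from M1 (SE 0.17, adjusted p = 0.0585), and both of its other probe sets passed there with the same sign. Oligodendrocyte markers moved alongside, with medians of 0.78 from A46 and -0.64 from M1, and their part in the ANLN values was not tested. SEPTIN2 (0.03, adjusted p = 0.901), SEPTIN7 (0.03, adjusted p = 0.862, although another of its probe sets passed) and CENPE (-0.15, adjusted p = 0.44) did not pass against A46. Without animal 1 or animal 2 the PMd minus A46 calls were lost for ANLN (adjusted p = 0.0756 and 0.116) and TMOD1 (0.0778 and 0.152).

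Of 5 tested genes of the actin-responsive SRF and MRTF pathway 0 passed in the 3 comparisons (0.438%, 0.0199% and 2.51% of all genes). At an unadjusted p under 0.05 there were 3, 1 and 3 of these 5, a list too short to be read against the 9.07%, 5.95% and 16.5% of all genes. The smallest p-values over the 3 comparisons were those of CCN2 (-0.28 from A46, limma adjusted p = 0.132), MRTFB (-0.21 from A46, adjusted p = 0.159), TAGLN (0.19 from PMv) and FHL2 (-0.15 from A46). TAGLN differed by 0.09 from A46, and SRF was not named on the array. Of 6 microtubule end-binding partners 0 passed, with 1, 0 and 0 at an unadjusted p under 0.05, beside the same shares of all genes. The smallest p-values over the 3 comparisons were those of MAPRE2 (0.14 from M1), MACF1 (-0.12 from M1), MAPRE1 (0.13 from PMv) and APC (0.14 from A46). Against A46, MAPRE2 differed by -0.01, MACF1 by 0.10 and MAPRE1 by 0.03.

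Cell type markers were read beside DIAPH3. The 4 oligodendrocyte markers had a mean log2 intensity of 9.83 in PMd, 10.5 in M1, 9.81 in PMv and 8.95 in A46, and 4 of 4 were higher in PMd than in A46, where 1.81% of all genes were higher and 0.697% lower. Of 6 layer 5 markers 3 were higher and 1 lower in PMd than in A46, and 1 was higher and 2 lower in PMd than in M1 (background 0.229% higher and 0.209% lower). Of 7 upper layer markers 2 were lower in PMd than in A46 and 1, FREM3, was higher in PMd than in M1 (0.92, SE 0.11). Of 5 interneuron markers PVALB and of 4 oligodendrocyte precursor markers OLIG2 were higher in PMd than in A46. In PMd minus PMv 0 markers passed in any of 13 lists, in a comparison that called only 2 of 10043 genes (0.0199%), so that count says little of how alike the 2 areas were in cell types. Astrocyte, microglia, endothelial, meninges, blood, layer 4, layer 6 and neuron lists had 0 calls in the 3 comparisons. Both neuron markers past the minimum, SYT1 and STMN2, had a joint mean log2 intensity of 12.4 in PMd, 12.4 in M1, 12.3 in PMv and 12.4 in A46. The part of cell composition in the DIAPH3 levels was not tested. RNA integrity was read from actin control probes, whose 3' signal exceeded the 5' signal by a log2 value of 0.99 ± 0.15 in PMd, against 0.94 ± 0.05 for M1, 1.10 ± 0.14 for PMv and 1.08 ± 0.11 for A46. For GAPDH control probes the excess was 0.95 ± 0.06 in PMd, 0.96 ± 0.04 in M1, 0.92 ± 0.06 in PMv and 0.84 ± 0.05 in A46. PMd thus lay below A46 by actin and above it by GAPDH. Any pair of arrays correlated at 0.977 to 0.997, and the left PMv array of animal 1 had the lowest mean correlation with the rest, 0.984. Without that array DIAPH3 in PMd exceeded PMv by 0.92.

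The genes that flank DIAPH3 on its chromosome, ordered by the RefSeq gene table of assembly T2T-MMU8v2.0, included no gene that passed in the 3 comparisons. Of all genes 0.438%, 0.0199% and 2.51% passed, so the absence of calls among so few genes says little of the region. On one side, moving outward, lie PCDH17, OLFM4, PCDH8 and CNMD, and on the other TDRD3, PCDH20, PCDH9 and KLHL1. PCDH17 and PCDH9 were not named on the array. TDRD3, a reader of methylated arginine, differed in PMd by -0.06 from M1, 0.08 from PMv and 0.29 from A46 (limma adjusted p = 0.999, 0.872 and 0.0645). PCDH20, an adhesion protein, differed by 0.15, 0.17 and -0.02. The protocadherin PCDH8 differed by 0.39, 0.09 and -0.28 (adjusted p = 0.0904, 0.885 and 0.134), the glycoprotein gene OLFM4 by 0.01, 0.08 and -0.01, and the actin-binding kelch gene KLHL1 by 0.03, -0.39 and -0.28. CNMD, a cartilage gene, lay below the minimum.

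Likeness to DIAPH3 was measured by Pearson's r over the 12 animal-by-area means after each animal's mean was removed, as a description over 10042 other genes. The highest were MYO5B, an actin motor of recycling endosomes (0.92), RAMP2, a partner of peptide hormone receptors (0.90), SORCS1, a sorting receptor of neurons (0.87), and LOC698738 (0.86). SRM, which makes spermidine (0.85), KCNN1, a calcium-activated potassium channel (0.84), IL17RB (0.84) and IL10RA, the interleukin 10 receptor (0.83), followed. Their differences were far smaller than those of DIAPH3. MYO5B had log2 means of 6.15 in PMd, 5.90 in M1, 6.01 in PMv and 5.85 in A46, and RAMP2 had 7.43, 7.27, 7.27 and 7.11. The lowest were ATG4A, an autophagy protease (-0.87), CRTC3, a coactivator of CREB (-0.85), PCID2, a factor of messenger RNA export (-0.83), and CDH26, a cadherin (-0.82), each lowest in PMd by the probe set that stood for it. The other probe set of PCID2 and that of CDH26 had the opposite sign in all 3 comparisons, and that of CRTC3 had it against M1. ATG4A had 6.08 in PMd, 6.26 in M1, 6.24 in PMv and 6.30 in A46. Among the formins FHOD1 (0.61), INF2 (0.54) and FMNL1 (0.47) had the highest r, and FHOD3 (-0.42) and DIAPH1 (-0.39) the lowest. With 12 values and so many genes, the named genes depended on the measure, and only 2 of these 12 were named again by r over the 24 arrays.

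**Figure D5:**
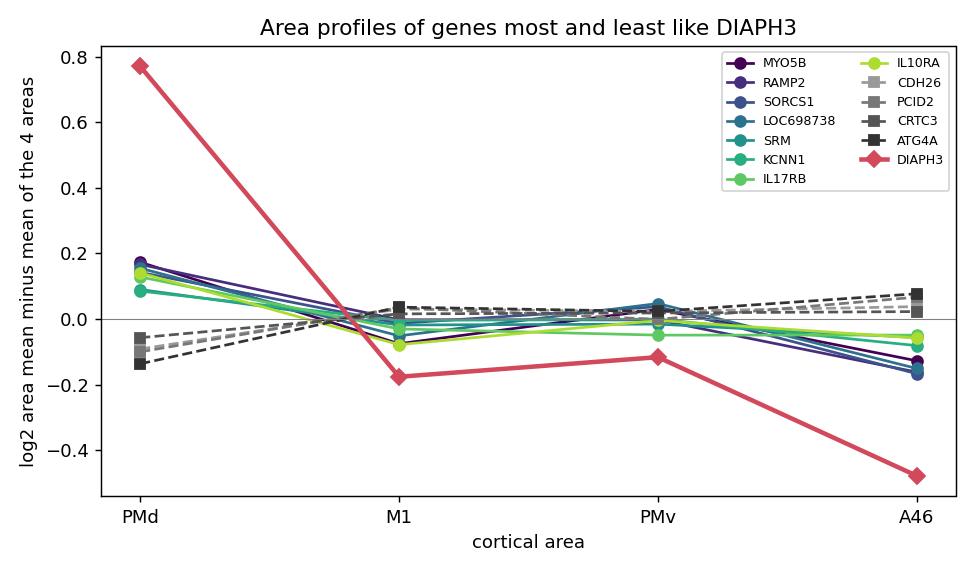
Log2 area mean minus the mean of the 4 areas for DIAPH3 (diamonds), the 8 genes most like it (circles) and the 4 least like it (squares, dashed). DIAPH3 spans a wider range than any of the 12 others, the 8 peaking and the 4 dipping in PMd.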

How the data were processed

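The authors deposited one linear intensity for every probe set and array. RMA made them, per the submitters' processing notes. Its version, and which arrays it took together, were not given in the sources used here. RMA brings arrays to a common distribution, so differences are relative to the other transcripts. Precision is limited by having 3 animals. Values were floored at 1 (0 lay below) and converted to log2. Of 52865 probe sets, 99 controls were removed. 24956 had 1 gene symbol, 361 several and 27449 none. Probe sets with a mean at or above the median were tested (26383). A gene was represented by its probe set of highest mean.

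Hemispheres were averaged to 12 means, and limma 3.58.1 (R 4.3.3; lmFit, eBayes with trend) was fitted with area and animal as terms. Left minus right used 24 arrays, blocked on the pair of pieces from one area and animal. These 12 pairs come from 3 animals, so its p-values rest on more units than animals. Tests were two-sided, with Benjamini-Hochberg adjusted p under 0.05 called. The animal is a block because all areas come from the same 3 animals. After area means were removed, means of the same animal correlated at 0.207 to 0.85 and of different animals at -0.561 to 0.065. The fits were tested on simulated data.

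The gene and lists were chosen with earlier results of these data known. The rule for named genes, followed except for some listed genes that are counted in the list totals but not reported here, took all DIAPH3 probe sets and formins, 4 flanking coding genes per side, the 4 smallest p-values per list, 6 genes fixed by name, the 6 other genes furthest above their next area in PMd, and the 8 most and 4 least like DIAPH3. Genes named with marker lists were chosen after their values were seen.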

Additional observations from a re-analysis of the deposited data

Results flagged for a closer look

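Among 52 groups of 6 arrays (the 3 DIAPH3 probe sets and 10 formin genes in each area), 5 held an array set apart from the rest by Dixon's criterion, and chance gives about 1 in 20. MmugDNA.22775.1.S1_at of DIAPH3 read 45.46 in the right M1 of animal 2, where the next lowest M1 array read 75.97. MmugDNA.22624.1.S1_at read 16.12 in the right PMd of animal 2 (next 19.24), and MmugDNA.42203.1.S1_at 11.3 in the right PMv of animal 3 (next 12.13). DIAPH2 read 63.64 in the right M1 of animal 1 (next 82.66). GRID2IP read 405.2 in the right A46 of animal 1 (next 464).

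For MmugDNA.22775.1.S1_at, left minus right was positive in 3 of 3 animals in M1 and negative in 3 of 3 in PMd and in A46. The mean differences stood 0.50 apart between M1 and PMd and 0.45 between M1 and A46 on the log2 scale. In M1 the differences were 0.12, 0.74 and 0.05 in animals 1, 2 and 3. The F test over all 4 areas did not pass (limma adjusted p = 0.999), and without animal 2 F was 0.91 (unadjusted p = 0.462).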

How the results depend on the processing

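MmugDNA.22775.1.S1_at of DIAPH3 was higher in PMd than in each other area under every alternative run, while the PMd differences of MmugDNA.22624.1.S1_at from PMv and A46 took either sign. The difference from M1 was 0.70 on left and 1.19 on right hemisphere arrays, and 0.90 to 0.98 with 1 animal left out. Left minus right stayed uncalled under 11 alternatives (-0.09 to -0.01), including per-animal means with the replicate block (-0.04, adjusted p = 0.952) and no replicate block (-0.04, adjusted p = 1). Its dependence on area stayed uncalled under 9.

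Calls were also counted over the 7 lists that are not of cell type markers (72 tested genes). Those genes called in PMd minus M1 (0) were 1 with no intensity filter, 2 with arrays centred on their medians, 2 on right hemisphere arrays, 2 without the left PMv array of animal 1 (added after seeing the data) and 0 to 1 with 1 animal left out (1 without animal 3). In PMd minus PMv (0) they were 0 to 4 with 1 animal left out (4 without animal 3). In PMd minus A46 (3) they were 0 to 13 with 1 animal left out, 0 with no replicate block and 1 on left hemisphere arrays. Of all genes, 44 called in PMd minus M1 became 108 with centred arrays, 28 with no trend, 108 without the left PMv array of animal 1, 1 on left and 101 on right hemisphere arrays, 0 with no replicate block and 0 to 111 with 1 animal left out. The 252 in PMd minus A46 became 388 with centred arrays, 393 without that array, 66 on left hemisphere arrays, 2 with no replicate block and 6 to 1187 with 1 animal left out, and the 2 in PMd minus PMv became 0 to 549 with 1 animal left out, 0 with no replicate block, 0 on left and 1 on right hemisphere arrays.

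Of the 12 genes most and least like DIAPH3, 2 were named again by r over 24 arrays, 4 by Spearman's rank correlation and 2 to 3 with 1 animal left out. The causes were not tested. Probe sets read near the lowest values of the array, as 2 of the 3 for DIAPH3 were, limit what can be said of them.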
